A study of Mus musculus with 11 samples.

Results

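miR-103 and miR-107 (mmu-miR-103 and mmu-miR-107 on the array) are a pair of nearly identical microRNAs (miRNAs), and they were followed here across mammary glands of 3 mouse strains and C3TAg mammary tumors. The 2 miRNAs are 2 of the 334 mouse miRNAs on a custom array, and were found as the plus-strand spots named for them, 4 spots each and 8 of 1336 in all. The samples were 2 FVB, 3 Balbc and 3 FVB129B6 normal mammary glands, taken in late pregnancy according to the methods, and 3 primary tumors of female FVB mice that carry the C3TAg transgene, which places the SV40 T antigens under the C3(1) promoter. All 11 samples came from female mice, the glands carried no transgene that the labels name, and the tumors were compared with pregnant glands and not with glands of virgin mice. The pair was chosen by its name and sequence but with its levels across these arrays already known, so the levels and differences are given as a description without p-values.

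miRNAs are short RNAs that guide Argonaute proteins to partly matching messenger RNAs and lower their output, and the seed, bases 2 to 8, does most of the pairing. miR-103 and miR-107 are made from introns of the pantothenate kinase genes, whose enzymes catalyse the first step of coenzyme A synthesis. They are known for acting on the transcript of Dicer, the nuclease that matures miRNAs, and for a role in insulin signalling. Their first bases also resemble those of the miR-15 and miR-16 family, which is known for restraining the cell cycle.

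The mature sequences of the pair and of the miRNAs on the array that hold AGCAGC at base 1 or 2 are shown because the probes and the seeds decide what the spots can tell apart. They are RefSeq sequences of assembly GRCm38.p6, 5′ to 3′, with the seed in capitals.
miR-103: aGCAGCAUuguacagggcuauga
miR-107: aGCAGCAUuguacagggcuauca
miR-15a: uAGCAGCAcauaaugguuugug
miR-15b: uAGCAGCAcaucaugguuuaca
miR-16: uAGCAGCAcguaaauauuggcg
miR-195: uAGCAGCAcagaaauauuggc
miR-424: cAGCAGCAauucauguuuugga
miR-497: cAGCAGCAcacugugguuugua
miR-503: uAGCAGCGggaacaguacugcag
miR-103 and miR-107 have the same seed and share 22 of 23 bases. The 1 substitution is G22C, read from miR-103 to miR-107 and counted from the 5′ end, next to the last base. The other 7 miRNAs carry the same 6 letters 1 base further in, so that their seeds are shifted by 1 base against that of the pair. The miRNA that the array calls miR-424 has the sequence of mmu-miR-322-5p in RefSeq, and the other names were matched to the 5p or 3p arm with that sequence.

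Mature miR-103 is encoded at 2 places of the mouse genome, at chr11:35782447-35782469 on the plus strand within Pank3 and at chr2:131288103-131288125 on the plus strand within Pank2. miR-107 is encoded once, at chr19:34820700-34820722 on the minus strand within Pank1. The probes hold only the mature sequence, which both miR-103 genes encode, so signal from the 2 genes cannot be told apart.

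The probes of the pair begin with the reverse complement of the miRNA and are shown with the base that differs between them in capitals.
miR-103 probe: tCatagccctgtacaatgctgct
miR-107 probe: tGatagccctgtacaatgctgct
Over their whole length of 60 bases the 2 probes differ by 1 base. Among the 279 other probes matched to a RefSeq miRNA the nearest in sequence was that of miR-23a, 8 edits from the miR-103 probe and 7 from the miR-107 probe. How much of each RNA binds the other's probe was not tested, and a value of either miRNA may hold signal of both.

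The deposited green-channel intensity of each spot was used, and the array median over the 1336 spots was subtracted on the log2 scale, so that a level of 0 is the median spot of an array. The FVB arrays stood apart from the other glands in this median spot, which had an intensity of 188.5 to 245.5 there, 508 to 583 on the Balbc arrays and 520.5 to 671.5 on the FVB129B6 arrays. Of the 334 miRNAs, 209 to 229 were well above background on the FVB arrays, 246 to 250 on the Balbc arrays and 254 to 262 on the FVB129B6 arrays, against 15 to 64 on the tumor arrays. On the tumor arrays the median spot had an intensity of 125 to 170 and random control probes had medians of 114 to 159.5, so that the median of a tumor array lay near the signal of probes with no target. U6, a small nuclear RNA with its own control spots, had a median intensity of 64000 to 115000 on the gland arrays and of 1920 to 4260 on the tumor arrays. The gland arrays lay on 1 slide, on which FVB held a column of its own, and the tumor arrays on another slide read with another program version, so tumor and slide cannot be told apart. The study describes its tumors as taken from individual mice. The titles of 2 Balbc arrays may name 2 glands of 1 mouse, and the labels do not say whether the other glands are from separate animals, so the spread between glands may be partly technical.

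On the gland arrays both miRNAs were bright. All 64 gland spots of the pair were well above background and lay between 21900 and 50700 in green intensity, while the highest random control probe on any gland array reached 50.2. Spots of 1 miRNA on 1 gland array differed by at most 1.35-fold. On the tumor arrays the 24 spots of the pair lay between 175 and 2450, and 14 of them were well above background. Spots of 1 miRNA on 1 tumor array differed by 1.94- to 6.60-fold. No spot of the pair was saturated, and 1 miR-103 spot on Balbc array 2 was left out as an outlier.

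**Figure D1:**
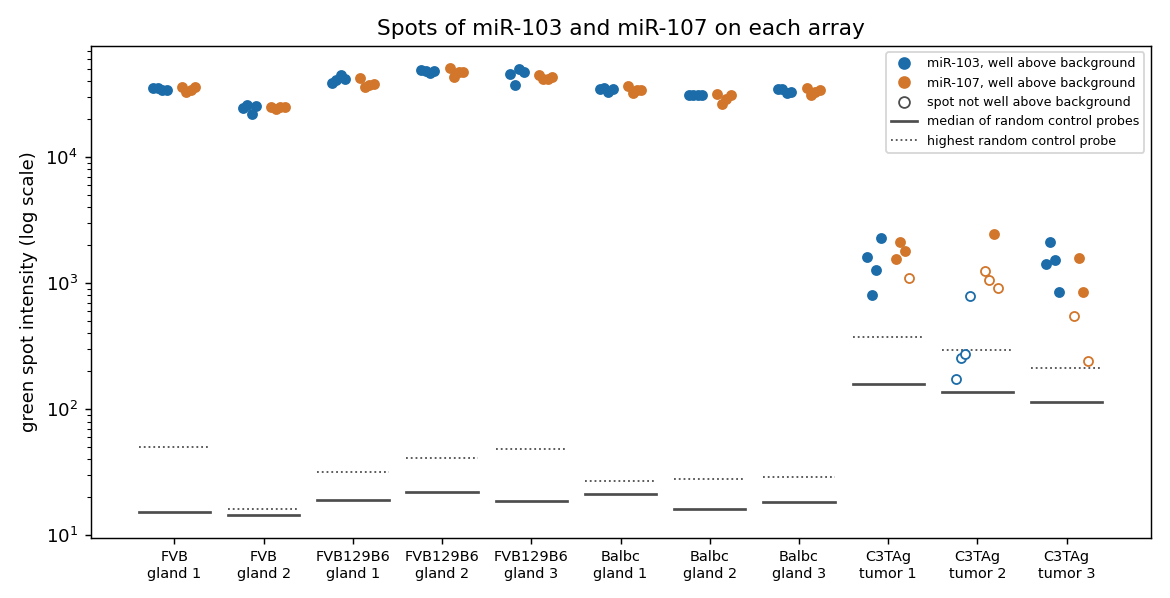
Green intensity on a log axis of the 4 miR-103 and 4 miR-107 spots on each of the 11 arrays, with filled circles for spots well above background, and the median and highest signal of 16 random control probes as lines. All gland spots lie between 21900 and 50700 and the tumor spots between 175 and 2450.

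With the array median as the scale, miR-103 was highest in FVB glands, where that median was dimmest. Its level was 7.14 and 7.02 on the 2 FVB arrays. It was 6.32, 6.16 and 6.38 on the FVB129B6 arrays. It was 5.88, 5.94 and 5.91 on the Balbc arrays. The arrays of the 3 strains did not overlap, and the order was FVB, then FVB129B6, then Balbc. The group means were 7.08 ± 0.09 (SD, n = 2), 6.29 ± 0.12 (SD, n = 3) and 5.91 ± 0.03 (SD, n = 3), so each step in the order was larger than the spread between arrays.

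miR-107 followed the same order. Its level was 7.15 and 7.04 on the FVB arrays. It was 6.21, 6.14 and 6.32 on the FVB129B6 arrays and 5.87, 5.85 and 5.89 on the Balbc arrays. Here too no array of 1 strain overlapped with another strain, and the means were 7.10 ± 0.07 (SD, n = 2), 6.22 ± 0.09 (SD, n = 3) and 5.87 ± 0.02 (SD, n = 3). Among the 261 miRNAs tested, those detected on 3 or more gland arrays, 13 had this order of strains without overlap, 4.98%, the pair included.

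The Balbc level was 2.25-fold lower than the FVB level for miR-103 (log2 difference -1.17, SE 0.15) and 2.34-fold lower for miR-107 (-1.22, SE 0.15). limma, a linear model that pools the spread over miRNAs, in which p-values were adjusted by the Benjamini-Hochberg method over all 261, called both members lower, beside 32.2% of all miRNAs tested called lower and 5.75% called higher. The median miRNA had a log2 difference of -0.48, from which miR-103 and miR-107 differed by -0.69 and -0.74. Ordered from the most negative difference, miR-107 was number 31 and miR-103 number 40.

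The FVB129B6 level was 1.73-fold lower than the FVB level for miR-103 (log2 difference -0.79, SE 0.15) and 1.83-fold lower for miR-107 (-0.88, SE 0.15). Both members were called lower, beside 31.4% of all miRNAs called lower and 8.05% called higher. The call of miR-103 ended with the 75th percentile (-0.43), the miRNAs well above background on all gland arrays (-0.27), quantile normalization (-0.39), normexp background correction (-0.15), green over red (-0.25) and all 11 arrays in 1 fit (-0.79), and that of miR-107 with the miRNAs well above background (-0.35), normexp (-0.28) and green over red (-0.32). Without scaling and with the U6 spots the sign turned. The median miRNA differed by -0.39 here, and the pair was number 78 (miR-103) and number 65 (miR-107) of 261 from the most negative. These contrasts share the 2 FVB arrays.

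Between Balbc and FVB129B6 glands the differences were small. The log2 difference was -0.38 (SE 0.14) for miR-103 and -0.35 (SE 0.13) for miR-107, with Balbc lower. Neither was called, beside 3.45% of all miRNAs called in either direction. With the U6 spots the arrays of the 2 strains overlapped for both miRNAs. In the slide column that holds FVB129B6 array 3 and Balbc array 1 the difference was -0.50 for miR-103 and -0.45 for miR-107.

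**Figure D2:**
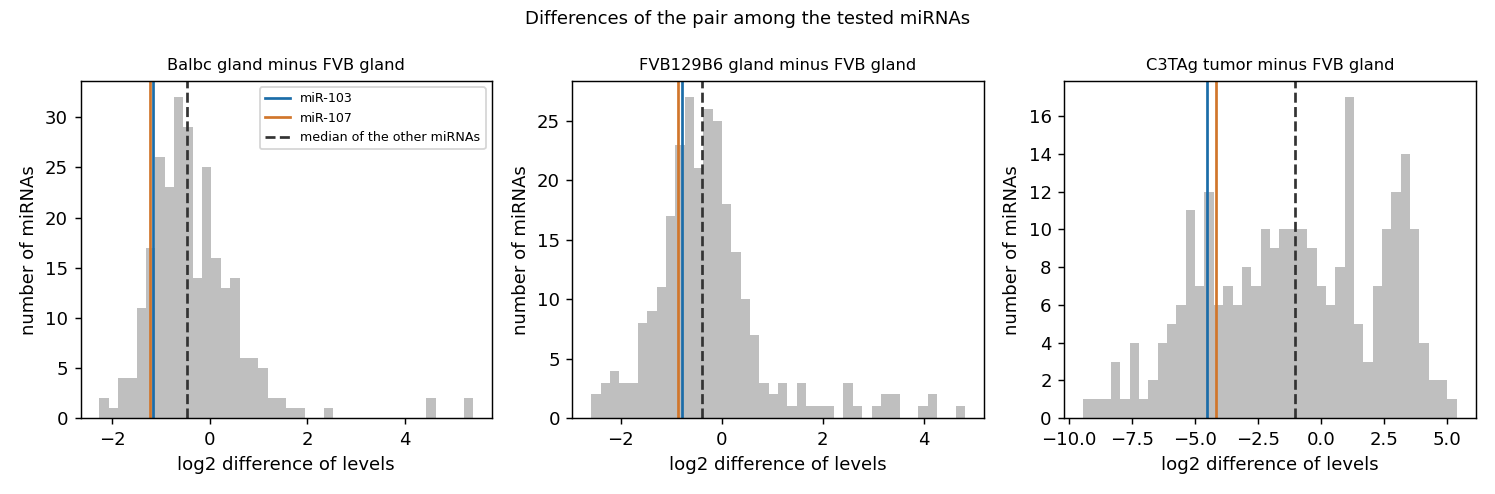
Histograms of the log2 difference of the tested miRNAs in 3 contrasts against FVB glands, with coloured lines for miR-103 and miR-107 and a dashed line for the median of the other miRNAs. The 2 lines of the pair lie beside each other below the median in each contrast, at -1.17 and -1.22, at -0.79 and -0.88, and at -4.51 and -4.15.

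The order of FVB and the other strains depended on what the arrays were set against. With the 75th percentile of each array in place of the median, the order stayed FVB, FVB129B6, Balbc without overlap, and the Balbc difference shrank to -0.74 for miR-103 and -0.79 for miR-107. Without scaling the arrays, the deposited green signal was highest in FVB129B6, and Balbc minus FVB became 0.18 for miR-103 and 0.13 for miR-107. Set against the U6 spots, an alternative chosen after the values were seen, Balbc minus FVB was 0.50 and 0.44 and FVB129B6 minus FVB was 0.78 and 0.70, none of them called.

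A scaling that subtracts 1 value per array moves all its miRNAs together, so it cannot change how far a miRNA lies from the median miRNA. Under the median, the 75th percentile, the miRNAs well above background on all gland arrays, no scaling and the U6 spots alike, Balbc minus FVB of miR-103 and miR-107 differed from that of the median miRNA by -0.69 and -0.74 on the log2 scale, and FVB129B6 minus FVB by -0.40 and -0.49. Other settings could change these distances, and did. With normexp they were -0.33 and -0.40 for Balbc and -0.04 and -0.17 for FVB129B6, with green over red -0.66 and -0.64, and -0.26 and -0.33, and after quantile normalization -0.57 and -0.61, and -0.30 and -0.38. The median miRNA itself moved from -0.48 in Balbc minus FVB with the array median to -0.05 with the 75th percentile and to 1.18 with the U6 spots. The split of calls moved with it, from 15 higher and 84 lower in Balbc with the array median to 31 higher and 16 lower with the 75th percentile and 172 higher and 0 lower with the U6 spots. Under each of the 8 scalings and signals of the plot by scaling the Balbc mean lay below the FVB129B6 mean, with a log2 difference of -0.45 to -0.25 for miR-103 and of -0.42 to -0.21 for miR-107.

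**Figure D3:**
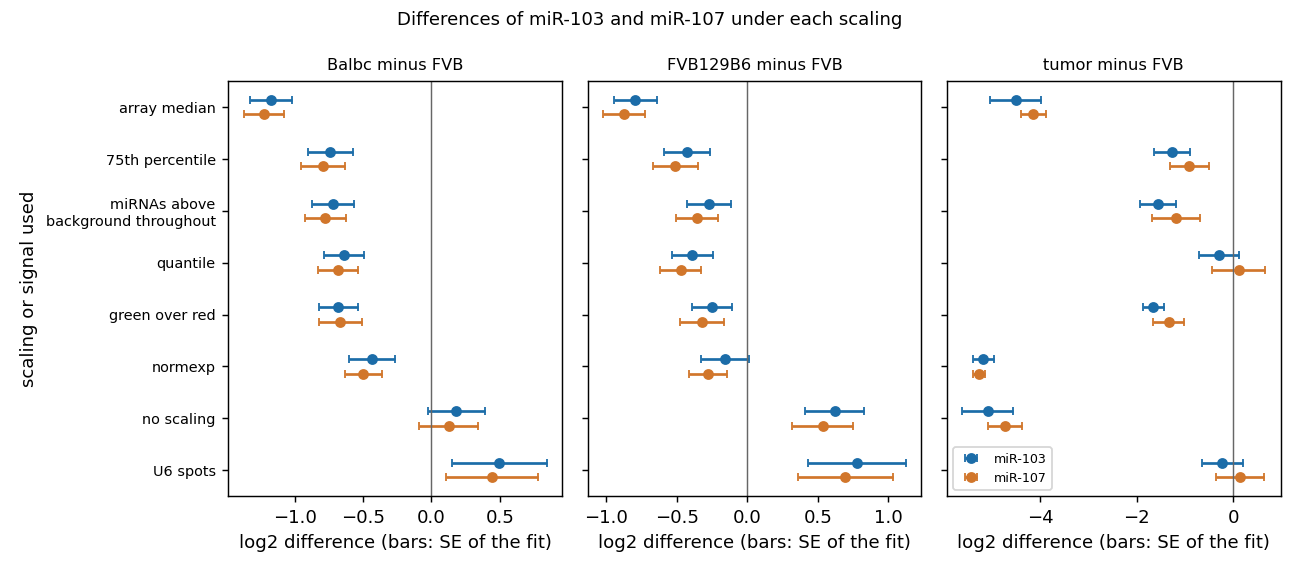
Log2 difference of miR-103 and miR-107 in Balbc glands, FVB129B6 glands and C3TAg tumors against FVB glands under 8 choices of scaling or signal, with bars for the SE of the fit. The gland differences are below 0 under 6 of the choices and above 0 without scaling and with the U6 spots, and the tumor differences run from -5.28 to 0.14.

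miRNAs of other tissues differed between the glands of the strains. Of 3 skeletal muscle miRNAs measured, all 3 were called higher in Balbc and in FVB129B6 than in FVB glands, with the array median, the 75th percentile and the U6 spots alike, with a summed level of 9.17 to 9.97 on the Balbc arrays, 8.45 to 8.62 on the FVB129B6 arrays and 3.64 to 6.02 on the FVB arrays. miR-1, which is made in muscle, was 5.32 higher on the log2 scale in Balbc than in FVB (SE 0.47, adjusted p = 0.00131, limma). The 6 blood miRNAs measured had a summed level of 9.66 to 9.72 on the FVB arrays, 7.93 to 9.56 on the Balbc arrays and 7.25 to 7.76 on the FVB129B6 arrays, and most of the sum in FVB was miR-451, which red blood cells make, with a mean level of 9.53 in FVB. Of the 6, limma called 1 lower in Balbc and 3 lower in FVB129B6 than in FVB and none higher. Over all miRNAs 32.2% and 31.4% were called lower. The median of the 6 was -0.36 in Balbc beside -0.48 over all miRNAs, and -1.75 in FVB129B6 beside -0.39. With the U6 spots 2 of the 6 were called higher in Balbc than in FVB and none lower, beside 172 higher and 0 lower of all 261 miRNAs.

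The epithelial list is the tissue's own. All 7 of its members, among them the 5 of the miR-200 family, which keeps epithelial cells from taking on a mesenchymal form, were well above background on every gland array. Their summed level was 8.77 to 9.80 in FVB, 8.90 to 9.27 in FVB129B6 and 8.06 to 8.94 in Balbc. In Balbc minus FVB, 2 of the 7 were called lower and none higher, and of the 5 miR-200 members 1 was called lower. Over all miRNAs 32.2% were called lower. The median was -0.81 for the 7 and for the 5, beside -0.48 over all miRNAs. Of the 7 only miR-205 had a difference above 0, at 0.19. With the U6 spots 3 of the 5 miR-200 members were called higher, beside 172 of all 261 miRNAs. In FVB129B6 minus FVB limma called 0 of the 7, 0 of them at an unadjusted p under 0.05, beside 31.4% of all miRNAs called lower. The miR-200 call in Balbc rests on single arrays. When 1 array was left out, limma called between 0 and 4 of the 5 lower, with 4 called without FVB array 1 and 0 without FVB array 2.

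Of the other tissue lists, stromal and smooth muscle miRNAs had 0 of 5 members called by limma in Balbc or FVB129B6 against FVB. Over all miRNAs 32.2% and 31.4% were called lower, and 5.75% and 8.05% higher. In each contrast 2 of 5 had an unadjusted p under 0.05. With the U6 spots 5 of 5 were called higher in both, beside 172 and 168 of all 261 miRNAs. The 1 endothelial miRNA measured, miR-126-5p, was called in neither contrast. What part of the strain differences of the pair goes with the makeup of the glands was not tested, and less RNA per cell cannot be told apart from fewer cells that hold it.

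In the C3TAg tumors the level of miR-103 was 3.04, 1.17 and 3.49, and that of miR-107 was 3.24, 3.23 and 2.38. All 3 tumor arrays lay below all 8 gland arrays for both miRNAs, as they did for 46.4% of the 261 miRNAs tested. The means were 2.57 ± 1.23 (SD, n = 3) and 2.95 ± 0.49 (SD, n = 3).

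With the 75th percentile as the scale, tumor and gland arrays overlapped for both miRNAs. As only 15 to 64 of the 334 miRNAs were well above background on the tumor arrays, that percentile may also fall among undetected spots there. Of the 7 epithelial miRNAs, 1 was well above background on all 3 tumor arrays and miR-200b, miR-141 and miR-203 on none.

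Among the tissue lists, the epithelial, stromal and blood miRNAs were mostly called lower in tumors than in FVB glands with the array median. These were 7 of 7 epithelial miRNAs (median difference -4.54), 5 of 5 stromal and smooth muscle miRNAs (-4.29) and 5 of 6 blood miRNAs (-3.07), beside 52.5% of all miRNAs. With the 75th percentile limma called 6, 4 and 1 of them lower and 0, 1 and 1 higher, and with the U6 spots 3, 2 and 1 lower and 1, 1 and 3 higher. Over all 261 miRNAs 64 were called lower and 165 higher with the 75th percentile, and 32 and 183 with the U6 spots. As only 15 to 64 of the 334 miRNAs were well above background on the tumor arrays, the higher calls rest in part on undetected signals. Of the blood miRNAs 4 of 6, and of the stromal ones 2 of 5, were well above background on no tumor array. The other 2 lists went otherwise with the array median. Of the 3 skeletal muscle miRNAs 1 was called lower and 1 higher. The 1 endothelial miRNA, miR-126-5p, was called higher (2.64), but it was well above background on no tumor array.

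Each member was well above background on 2 of the 3 tumor arrays. For miR-103 all 4 spots passed on tumor arrays 1 and 3 and none on array 2, where 1 of its 4 spots was brighter than the brightest random control probe. For miR-107, 3, 1 and 2 of the 4 spots passed on tumor arrays 1, 2 and 3, and all 4 were brighter than the brightest random control probe on each. The tumor array on which miR-103 was lowest was thus not the one on which miR-107 was lowest.

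Against FVB glands, the strain of the tumors, the log2 difference was -4.51 (SE 0.53) for miR-103, a 22.8-fold lower level, and -4.15 (SE 0.26) for miR-107, a 17.7-fold lower level. limma called both members lower, beside 52.5% of all miRNAs called lower and 35.6% called higher. The median miRNA differed by -1.04, and of the 261 miRNAs miR-103 was number 51 and miR-107 number 61 from the most negative. Without tumor array 2 the difference of miR-103 was -3.82. With each tumor array counted at no less than the dimmest signal detected on it, FVB glands were 18.3-fold higher for miR-103. For miR-107 this changed nothing and the value stayed at 17.7-fold. With the 75th percentile these values were 1.94-fold and 1.88-fold, and with the U6 spots 0.93 and 0.90, so no higher level in FVB was left.

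The tumor difference changed most with the scaling. It was -1.27 for miR-103 and -0.91 for miR-107 with the 75th percentile of each array, and the second was not called. Scaled on miRNAs well above background throughout, it was -1.55 for miR-103 and -1.19 for miR-107. Under that scaling every gland array lay above every tumor array for miR-103, but not for miR-107. The tumor difference was -0.29 and 0.12 after quantile normalization and -0.22 and 0.14 with the U6 spots, and none of these 4 was called. The green signal without scaling gave -5.09 and -4.73. With the U6 spots the median miRNA rose to 3.25, with 183 miRNAs called higher in tumors and 32 lower, against 93 higher and 137 lower with the array median. No tumor array had more than 64 miRNAs well above background. The higher calls thus rest in part on undetected tumor signals, and no rise can be read from their number. From the median miRNA, miR-103 differed by -3.47 and miR-107 by -3.10 on the log2 scale under the settings that subtract 1 value per array, where this distance cannot change. Most of the miRNAs behind that median were undetected in tumors, so the distance depends on undetected signal. With the array median, the median difference was -1.04 over all miRNAs and -2.14 over those well above background on all gland arrays. From the median miRNA over all 261, the distance moved with the other settings. It was -1.64 and -1.32 with green over red and -4.47 and -4.57 with normexp. After quantile normalization miR-103 was itself the median miRNA and miR-107 lay 0.41 above it.

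miR-103 and miR-107 were compared with each other only within an array, where scaling has no effect. Each probe has its own brightness, so the value on 1 array says nothing of which RNA is more abundant, and only its change between arrays is described. On the gland arrays the log2 signal of miR-103 minus that of miR-107 was -0.03 at the lowest and 0.12 at the highest, with a mean of 0.04 ± 0.05 (SD, n = 8). It was -0.0044 and -0.028 on the FVB arrays, 0.12, 0.02 and 0.06 on the FVB129B6 arrays and 0.02, 0.08 and 0.02 on the Balbc arrays.

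The 2 FVB values were the only ones below 0 among the glands, by less than the spread of single spots. Pairing each spot of 1 miRNA with each of the other on a single FVB array gave values from -0.20 to 0.10. On the tumor arrays the same difference was -0.20, -2.05 and 1.11. On tumor array 2, where no miR-103 spot was well above background, all single spot pairs lay below 0, from -3.81 to -0.20. On tumor arrays 1 and 3 they ran from -1.40 to 1.05 and from -0.91 to 3.15. The tumor values lay on both sides of 0, so that no direction between the 2 miRNAs shared by the tumors was detectable.

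**Figure D4:**
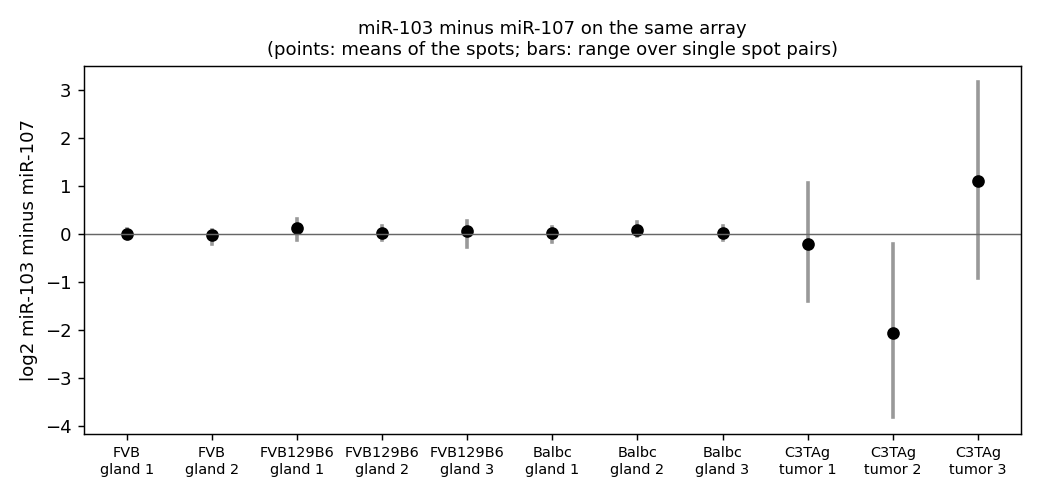
Log2 signal of miR-103 minus that of miR-107 on each of the 11 arrays, as points for the means of the spots and bars for the range over single spot pairs. The 8 gland points lie between -0.03 and 0.12 and the 3 tumor points at -0.20, -2.05 and 1.11.

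Over the 8 gland arrays miR-107 was the miRNA most like miR-103 of the 260 others, with a Pearson correlation of levels of 0.997, and the reverse held too. The points share the array and its median, and the 2 probes share all but 1 base. Next to miR-103 came miR-27b (r = 0.96), miR-30b (0.96), miR-182 (0.96) and miR-194 (0.95). Next to miR-107 came miR-27b (0.97), miR-182 (0.97), let-7d (0.96) and miR-27a (0.96). All of these were highest in FVB glands, for example miR-182 with a mean level of 5.60 in FVB, 4.24 in FVB129B6 and 3.88 in Balbc. With the 75th percentile as the scale, 3 of the 5 names stayed for each member.

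With the tumor arrays included, where the spots of the pair lay near background, the correlation between miR-103 and miR-107 was 0.92 over 11 arrays, and miR-107 was number 89 of 260 in likeness to miR-103. The 5 most like miR-103 were let-7d (r = 0.99), miR-23a (0.99), let-7i (0.99), miR-27a (0.99) and miR-23b (0.98). The 5 most like miR-107 were miR-28 (0.99), miR-193 (0.98), miR-152 (0.98), miR-182 (0.98) and miR-494 (0.98). These correlations over 11 arrays rest mostly on the step between glands and tumors, and that between the members fell to 0.14 with the 75th percentile as the scale.

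The 7 other miRNAs with AGCAGC at base 2 were all well above background on every gland array. limma called 0 of 7 in Balbc minus FVB and 0 of 7 in FVB129B6 minus FVB, with 0 of 7 at an unadjusted p under 0.05 in either, and 0 of 7 in Balbc minus FVB129B6, with 1 of 7 at an unadjusted p under 0.05. Over all miRNAs 32.2% were called lower and 5.75% higher in Balbc minus FVB, and 31.4% and 8.05% in FVB129B6 minus FVB. The median difference of the 7 was -0.04 in Balbc minus FVB, beside -0.48 over all miRNAs, and -0.19 in FVB129B6 minus FVB, beside -0.39. The difference between this group and the pair was not tested. With the U6 spots all 7 were called higher in Balbc, beside 172 of all 261 miRNAs, and 5 of 7 in FVB129B6, beside 168 of 261.

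For miR-16, a founding member of its family, the FVB glands had a mean of 7.64 ± 0.16 (SD, n = 2) and the Balbc glands one of 7.61 ± 0.46 (SD, n = 3), with the FVB129B6 glands at 7.03 ± 0.17 (SD, n = 3). Its Balbc and FVB arrays overlapped, from 7.30 to 8.14 and from 7.53 to 7.75. miR-195, made beside miR-497, had its lowest mean in FVB at 6.27 ± 0.13 (SD, n = 2), against 6.70 ± 0.19 (SD, n = 3) in Balbc. miR-15a, miR-15b, miR-424 and miR-497 had gland means from 4.64 to 5.98, and miR-503 from 1.27 to 1.61.

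**Figure D5:**
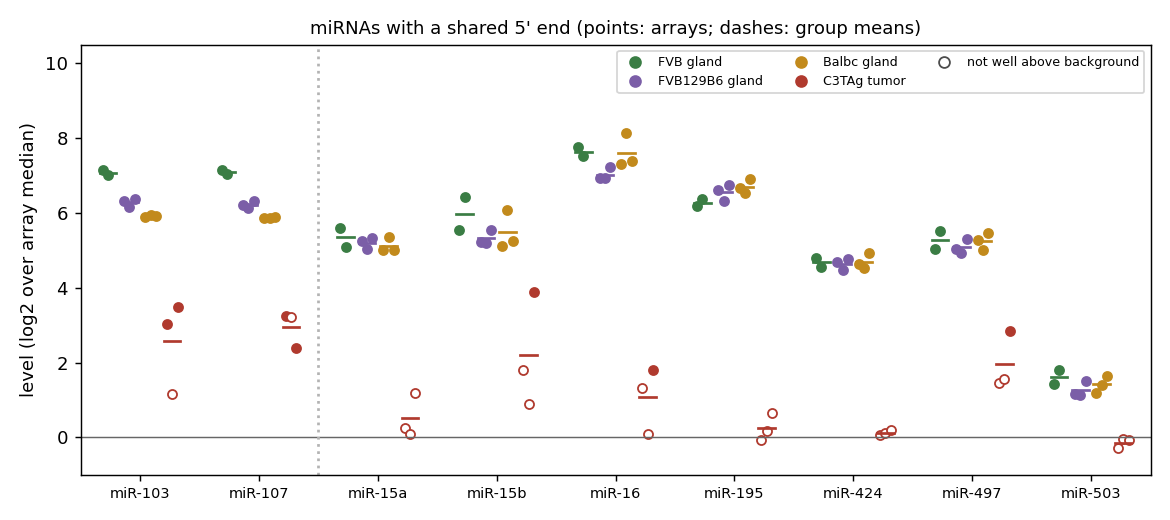
Level (log2 over the array median) of miR-103, miR-107 and the 7 miRNAs with AGCAGC at base 2 on each array, coloured by group, with dashes for group means and open circles where fewer than 50% of the spots were well above background. All 3 strains separate for miR-103 and miR-107, while for miR-16 the Balbc and FVB arrays overlap and the FVB129B6 arrays lie below both. The tumor points are lowest for each miRNA.

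In the tumors all 7 of these miRNAs were called lower than in FVB glands by limma with the array median, beside 52.5% of all miRNAs called lower and 35.6% called higher, and with a median difference of -4.56 beside -1.04 over all miRNAs. Few of these tumor values were measured. miR-16, miR-15b and miR-497 were well above background on 1 of 3 tumor arrays each, and miR-15a, miR-195, miR-424 and miR-503 on none.

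Only a bound is therefore given, for which a tumor array counted with the dimmest signal that still passed as detected there, or with the miRNA's own signal where that was brighter. miR-16 was at least 50.5-fold higher in FVB glands than in tumors (adjusted p = 1.81e-07, limma), miR-15b at least 9.91-fold (adjusted p = 0.000426) and miR-497 at least 7.71-fold (adjusted p = 1.33e-05). miR-195 was at least 22.2-fold higher in FVB glands than in tumors (adjusted p = 5.05e-09, limma), miR-15a at least 11.8-fold (adjusted p = 1.81e-07) and miR-424 at least 7.40-fold (adjusted p = 7.81e-09), and no fold could be given for miR-503. These adjusted p-values come from the fit to the signals as measured and do not test the bounds. Most of the tumor signals in that fit were not well above background. With the 75th percentile the bounds were 5.34-fold for miR-16, 2.35-fold for miR-195, 1.24-fold for miR-15a and 1.05-fold for miR-15b, and none could be given for miR-424, miR-497 or miR-503. With the U6 spots a bound of 2.58-fold for miR-16 and of 1.14-fold for miR-195 was left. With the 75th percentile limma called 4 of the 7 lower and 1 higher, beside 64 lower and 165 higher of all 261 miRNAs. With the U6 spots it called 2 lower and 2 higher, beside 32 lower and 183 higher of 261. But the miRNAs called higher, miR-503 in both and miR-497 with the U6 spots, were well above background on 0 and 1 of 3 tumor arrays, so no rise can be read from these calls.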

How the data were processed

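Total RNA was labelled with Hy3 and hybridised to a custom 60-base oligonucleotide array. For each of the 11 arrays the authors deposited Feature Extraction files (version 9.5.1.1 for tumors, 10.5.1.1 for glands) with green and red spot intensities, background subtracted and dye normalized, and a table of log2 values. The deposited log2 values equalled the log2 of the green intensities after 1 constant per array, with an SD of at most 2e-09. What the red channel holds is not given in the sources used here. Log2 green intensities were centred on each array's median, without outlier spots, and averaged over 4 spots per miRNA.

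A miRNA was tested where at least 50% of its spots were well above background on at least 3 arrays of the fit, 261 of 334. limma 3.58.1 in R 4.3.3 was fitted to the 8 glands for strains and to 4 groups for tumors, with Benjamini-Hochberg adjustment at 0.05, and was tested on simulated data. Names were fixed by rule: the pair, the miRNAs with AGCAGC at base 1 or 2, and the 5 miRNAs most correlated with each member. The members and lists were chosen with earlier results of these data known. Of 334 probes, 281 matched a RefSeq miRNA. The number of arrays limits the precision. Replicate numbers do not pair the samples: same-numbered arrays of different groups had a mean correlation of deviations of 0.04 over 15 pairs, against -0.02 over 30 others. The alternatives were other scalings, signals, filters, spot summaries, arrays left out and blocks.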

Additional observations from a re-analysis of the deposited data

Results flagged for a closer look

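Apart from the green over red alternative the red intensities were used in no comparison, though the deposited green intensities were dye normalized. What the red channel holds is not given in the sources used here. In red, all 12 miR-103 spots and all 12 miR-107 spots on the 3 tumor arrays were well above background, against 8 and 6 of the 12 in green. All spots of both members were also well above background in red on the 8 gland arrays. The red level over the red array median was 2.27 to 3.92 for miR-103 and 3.15 to 3.54 for miR-107 on the tumor arrays, and 4.90 to 5.41 and 4.88 to 5.38 on the gland arrays.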

How the results depend on the processing

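With limma and the array median, miR-103 and miR-107 were called in Balbc minus FVB, FVB129B6 minus FVB and tumor minus FVB and not in Balbc minus FVB129B6, and these calls held with the deposited table, either filter that could be applied, the floor, outlier spots kept, the median of the spots, the slide row as a block, the averaged Balbc arrays and the replicate block, and when any 1 array was left out. Leaving out arrays gave -1.23 to -1.11 and -1.28 to -1.17 in Balbc minus FVB, -0.86 to -0.73 and -0.93 to -0.82 in FVB129B6 minus FVB, and -4.98 to -3.82 and -4.29 to -3.86 in tumor minus FVB, for miR-103 and miR-107. With the replicate block, Balbc minus FVB was -1.19 for miR-103. The replicate numbers mark no shared animal or day, and the block moved the count of calls past 1.5 times in Balbc minus FVB129B6, to 14 miRNAs from 9. With the filter on every array the pair could not be tested in the tumors. The cause of the changes below was not tested.

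In Balbc minus FVB, miR-103 was -0.43 after normexp background correction and -1.17 with all 11 arrays in 1 fit, both not called. The sign turned without scaling (0.18 for miR-103, 0.13 for miR-107) and with the U6 spots (0.50 and 0.44), none called. In FVB129B6 minus FVB, miR-103 was not called at -0.43 (75th percentile), -0.27 (miRNAs well above background throughout), -0.39 (quantile), -0.15 (normexp), -0.25 (green over red) and -0.79 (all arrays in 1 fit), and miR-107 at -0.35 (miRNAs well above background throughout), -0.28 (normexp) and -0.32 (green over red). It turned to 0.62 for miR-103, called, and 0.54 for miR-107 without scaling, and to 0.78 and 0.70 with the U6 spots. In tumor minus FVB, miR-103 was not called at -0.29 (quantile) and -0.22 (U6), nor was miR-107 at -0.91 (75th percentile), 0.12 (quantile) and 0.14 (U6).

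Counts of miRNAs called moved more. Balbc minus FVB called 99, but 47 (75th percentile), 54 (quantile), 151 (no scaling), 65 (green over red), 178 (no filter), 172 (U6) and 65 (all arrays in 1 fit). FVB129B6 minus FVB called 103, but 179 (no scaling), 39 (green over red), 191 (no filter) and 169 (U6). Balbc minus FVB129B6 called 9 miRNAs, with 55 at an unadjusted p under 0.05, but 5 (miRNAs well above background throughout), 5 (quantile), 4 (green over red), 5 (slide row), 17 (all arrays in 1 fit), 0 with normexp, where 49 had an unadjusted p under 0.05, 0 with the filter on every array, where 32 had one, and 0 to 16 with 1 array left out. Tumor minus FVB called 230, but 12 with the filter on every array, where only 15 could be tested. Higher and lower calls in Balbc minus FVB were 43 and 26 with the miRNAs well above background throughout, 21 and 33 after quantile normalization, 45 and 69 with normexp and 45 and 20 with green over red. In FVB129B6 minus FVB they were 40 and 43 with the 75th percentile, 50 and 22, 41 and 50, 44 and 77 and 25 and 14 in the same order. In tumors they were 165 and 64 with the 75th percentile, 157 and 67, 69 and 100, 66 and 143 and 85 and 72. The higher calls in tumors rest in part on signals not well above background there.

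Of the 7 miRNAs with AGCAGC at base 2, 1 was called in Balbc minus FVB with the 75th percentile, 1 with the miRNAs well above background throughout, 1 after quantile normalization, 1 with green over red, 3 with normexp, 7 without scaling and 7 with the U6 spots. In FVB129B6 minus FVB these were 1, 1, 1, 0 with green over red, where 1 had an unadjusted p under 0.05, 3, 7 and 5, and 0 to 1 with 1 array left out. In tumor minus FVB 2 were called with green over red and 4 with the U6 spots. The sign turned with green over red for miR-15b (0.83), miR-16 (0.42), miR-424 (0.41) and miR-503 (1.33), with the U6 spots for miR-15b (0.51), miR-497 (0.97) and miR-503 (2.54), after quantile normalization for miR-497 (0.72), and for miR-503 with the 75th percentile (1.49) and the miRNAs well above background throughout (1.21). Of these, miR-424 and miR-503 were well above background in green on no tumor array and miR-15b, miR-16 and miR-497 on 1, so these signs show no rise. Of the 5 miR-200 members, limma called 0 in Balbc minus FVB under 6 other scalings or signals, with 0 or 1 at an unadjusted p under 0.05, 3 with the U6 spots and 0 to 4 with 1 array left out, in FVB129B6 minus FVB 4 without scaling, 1 with normexp, 5 with the U6 spots and 0 to 1 with 1 array left out, and in tumor minus FVB 3 after quantile normalization, with green over red and with the U6 spots.

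miR-103 minus miR-107 within arrays moved by more than the spread between replicates with green over red in FVB (0.0022) and Balbc (-0.011). Single spot pairs ran from -0.20 to 0.10 in FVB, -0.16 to 0.26 in Balbc, -0.28 to 0.31 in FVB129B6 and -3.81 to 3.15 in tumors.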
